A study of Mus musculus with 12 samples.

Results

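Interferon response genes are those whose transcription rises when a cell meets an interferon. A list of 37 such mouse genes was followed through 3 stages of early T cell development, out of 18193 genes with a probe set of their own on the array. Each gene was represented by its brightest probe set among those annotated with that 1 symbol. Of the 37 genes, 35 had such a probe set and 33 exceeded the filter on dim signals, which 11176 genes passed in all. Isg15 lay only on a probe set shared with another symbol and Ifi44 had no probe set under that symbol, so neither was analysed here, and Mx2 and Stat2 were too dim to test.

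The study profiled double negative (DN) thymocytes, T cell precursors that carry neither CD4 nor CD8, on Affymetrix Mouse Genome 430 2.0 arrays. DN2 cells were sorted as CD44+CD25+, DN3 cells as CD44-CD25+ and DN4 cells as CD44-CD25-, each negative for CD4, CD8, CD3, NK1.1 and the gamma-delta T cell receptor. All cells came from thymuses of female C57BL/6 mice aged 5 to 6 weeks, and the labels give no treatment and no genotype beyond the strain. There were 4 sorts, each a pool of 4 mice, 16 in all, and each sort gave 1 array per stage, so the 12 arrays form 4 sets of 3 that share a source of cells. A level in a pool is a mean over animals, and the spread between sorts does not show how single mice vary.

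Interferons signal through receptors on the cell surface to Janus kinases and transcription factors. Type I and type III interferons act largely through factors that bind the interferon-stimulated response element (ISRE), STAT2 and IRF9 among them, and interferon gamma acts largely through the gamma-activated site (GAS). Their targets sense foreign nucleic acid, degrade or bind viral RNA, disrupt vacuoles that hold pathogens, and restrain the signal itself. In the thymus, some interferon is made without infection, by epithelial cells among others.

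All levels below are log2(signal + offset) after quantile normalization, with an offset of 5.68 signal units, the table's 25th percentile, which understates changes of dim genes. A gene was called where the adjusted p of the moderated test paired by sort (limma) was under 0.05 over all genes tested, and errors of differences are standard errors (SE) over the 4 sorts. The filter level, the table's median, was 4.71 on this scale. The sort markers followed the labels. Cd44 differed by -3.69 ± 0.15 (adjusted p = 6.04e-06) between DN3 and DN2, and Il2ra, which encodes CD25, by -3.56 ± 0.16 (adjusted p = 9.07e-06) between DN4 and DN3. The ratio of 3' to 5' probe sets of Gapdh, a measure of RNA integrity and amplification, averaged 1.39 ± 0.32 in DN2, 1.04 ± 0.17 in DN3 and 1.16 ± 0.21 in DN4 (log2; SD, n = 4 arrays each). The median deposited signal averaged 22.2 ± 4.70, 22.5 ± 2.68 and 16.9 ± 1.22 in the same order.

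RefSeq promoter windows on the build GRCm38.p6 were found for 27 of the 37 genes. They were searched on both strands for the ISRE core GAAANNGAAA and for the GAS pattern TTCNNNGAA in the 250 bases before the annotated start, and overlapping matches were counted. The ISRE core was present for 12 of the 27 genes, against 3.46% of 27025 genes with a window. The GAS pattern was present for 7 of the 27, against 8.13% of all. Bst2, Gbp2, Gbp3, Ifit1, Igtp, Irgm1, Oas1a, Oas3 and Rsad2 hold the core, and each was lower at a later stage in at least 1 comparison below. The others with the core were Ifit3, never called, and Isg15 and Stat2, not tested. Lower genes without it in their windows were Cmpk2, Ddx58, Eif2ak2, Ifi35, Ifih1, Irf7, Irf9, Isg20, Oasl2, Trim25 and Xaf1. Ifit2, also without it, was lower in DN3 than DN2 and higher in DN4. Irf1 and Oasl1, without it too, were never called, and Ifi44 was not tested. So the letters alone did not separate the genes that changed. How many of all genes were lower in at least 1 comparison was not counted. A match is not a measured binding site, and its absence says only that these letters are not in the window.

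The 160 bases before the start are printed below, 5' to 3' on the gene's strand, with matches to the ISRE core in capitals. Ifit1, Ifit3 and Ifit2 are shown because these genes of 1 cluster on chromosome 19 differed between DN4 and DN3, where Ifit1 fell, Ifit2 rose and Ifit3 was not called. Gbp2, Rsad2 and Oas1a are shown as genes that fell and hold the core. The Ifit1 window is chr19:34640729-34640888 on the plus strand, the Ifit3 window chr19:34583369-34583528 on the plus strand, and the 2 windows of Ifit2 are chr19:34550534-34550693 on the plus strand and chr19:34550928-34551087 on the plus strand. The windows of Gbp2, Rsad2 and Oas1a are chr3:142620503-142620662 on the plus strand, chr12:26456453-26456612 on the minus strand and chr5:120907526-120907685 on the minus strand.
Ifit1: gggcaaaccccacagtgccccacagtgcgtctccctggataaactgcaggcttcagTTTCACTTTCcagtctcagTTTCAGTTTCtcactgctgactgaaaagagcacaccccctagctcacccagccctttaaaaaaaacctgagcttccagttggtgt
Ifit3: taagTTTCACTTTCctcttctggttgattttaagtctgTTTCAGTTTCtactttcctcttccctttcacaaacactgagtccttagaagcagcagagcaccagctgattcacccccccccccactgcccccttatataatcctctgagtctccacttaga
Ifit2, upstream start: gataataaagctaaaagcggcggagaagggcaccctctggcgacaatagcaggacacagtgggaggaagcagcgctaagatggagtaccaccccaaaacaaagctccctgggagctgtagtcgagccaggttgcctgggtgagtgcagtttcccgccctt
Ifit2, downstream start: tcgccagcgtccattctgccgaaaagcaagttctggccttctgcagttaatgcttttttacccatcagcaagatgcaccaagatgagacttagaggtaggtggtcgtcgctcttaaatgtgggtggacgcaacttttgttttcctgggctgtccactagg
Gbp2: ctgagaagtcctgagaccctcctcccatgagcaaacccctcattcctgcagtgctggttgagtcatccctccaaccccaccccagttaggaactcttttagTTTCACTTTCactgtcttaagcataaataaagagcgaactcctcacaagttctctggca
Rsad2: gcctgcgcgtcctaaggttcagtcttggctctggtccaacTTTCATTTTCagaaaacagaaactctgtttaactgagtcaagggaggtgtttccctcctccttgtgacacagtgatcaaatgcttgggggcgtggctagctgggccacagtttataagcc
Oas1a: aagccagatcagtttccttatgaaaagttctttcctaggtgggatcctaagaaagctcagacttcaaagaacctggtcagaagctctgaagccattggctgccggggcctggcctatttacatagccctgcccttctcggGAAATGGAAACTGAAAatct
The 2 matches of Ifit1 lay 94 and 75 bases before the start, counted from the match's near end, and those of Ifit3 lay 146 and 112 bases before it. Neither window of Ifit2 held the core. The annotated extent of Ifit2 begins at chr19:34550550, before both starts used, so the bases before that position were searched only in part. That of Ifit3 likewise begins, at chr19:34583119, before the start used. The single match of Gbp2 lay 49 bases and that of Rsad2 110 bases before the start. In Oas1a, 2 overlapping matches lay 10 and 4 bases before it.

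More of the interferon response genes were lower than higher at each later stage, and most were lower in DN4 than in DN2. Between DN3 and DN2, 13 of the 33 genes tested were called lower and 0 higher, where 10.9% of all genes tested were called lower and 9.99% higher. Between DN4 and DN3, 19 were lower and 1, Ifit2, was higher, against 14.9% lower and 15.4% higher among all genes. Between DN4 and DN2, 25 were lower and 2, Ifit2 and Usp18, were higher, against 21.9% lower and 24.8% higher. The median difference of the 33 genes was -0.33 between DN3 and DN2, -0.54 between DN4 and DN3 and -0.91 between DN4 and DN2, while the medians of all genes tested were 0.02, 0.05 and 0.06. Arrays of the 2 stages did not overlap for 6 of the 13 genes lower in DN3 than DN2, 13 of the 19 lower in DN4 than DN3 and 23 of the 25 lower in DN4 than DN2. How often this held among all called genes was not counted, so these counts describe the listed genes only. The 3 comparisons share arrays and are not independent of each other. RNA of whole sorted samples was measured, so fewer cells with a transcript and less transcript per cell cannot be told apart.

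The counts depended on how the arrays were compared, above all for DN3 against DN2. Without the sort as a block, 4 genes were lower in DN3 than DN2, 12 lower in DN4 than DN3, and 24 lower and 0 higher in DN4 than DN2. Calls over all genes were fewer in that fit too, with 6.45%, 9.07% and 16.7% of genes lower in the 3 comparisons and 17.9% higher in DN4 than DN2. With the Gapdh ratio as a covariate beside the block, 2 genes were lower in DN3 than DN2, 16 lower in DN4 than DN3 and 19 lower in DN4 than DN2, where 2.13%, 12.5% and 15.2% of all genes were lower. The Gapdh ratio was highest in DN2, and its part in the result was not tested beyond that fit. Sorts 1 and 2 alone gave 4, 11 and 23 lower genes in the 3 comparisons, against 3.63%, 6.66% and 15.6% of all genes. Sorts 3 and 4 alone gave 4, 9 and 19, against 4.83%, 7.52% and 16.1%. Leaving out DN2 replicate 2, DN2 replicate 4 or DN3 replicate 1 left 8 genes lower in DN3 than DN2, against 8.59%, 8.09% and 7.82% of all genes. Leaving out DN2 replicate 3 gave 2 genes higher in DN4 than DN3, against 15.2% of all genes.

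**Figure D1:**
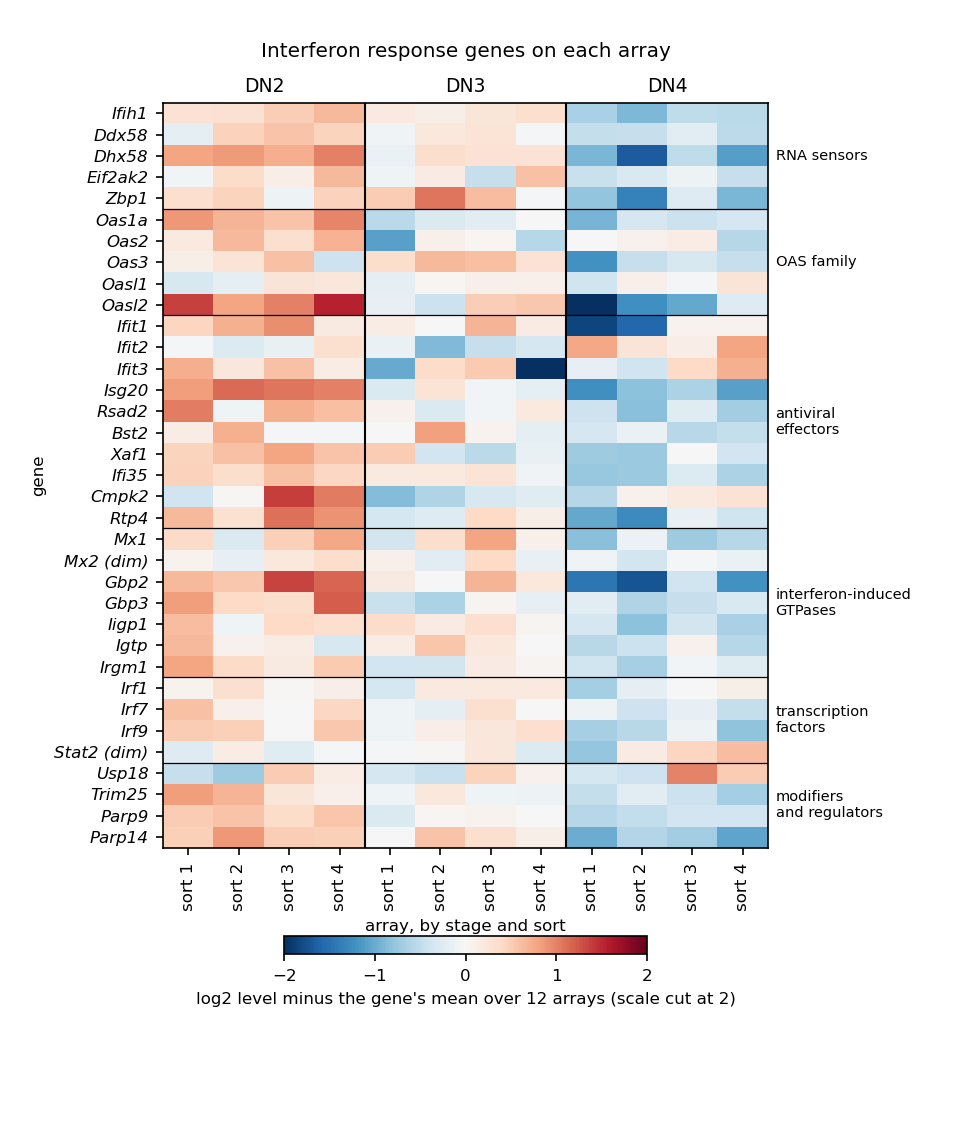
Level of each gene on each of the 12 arrays as the log2 level minus the gene's mean over the arrays, from low (blue) to high (red), with the scale cut at 2. Arrays are ordered DN2, DN3, DN4 and by sort within a stage, genes by role, and Mx2 and Stat2 were too dim to test. Most rows run from red in DN2 to blue in DN4, and Ifit2 and Usp18 do not.

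**Figure D2:**
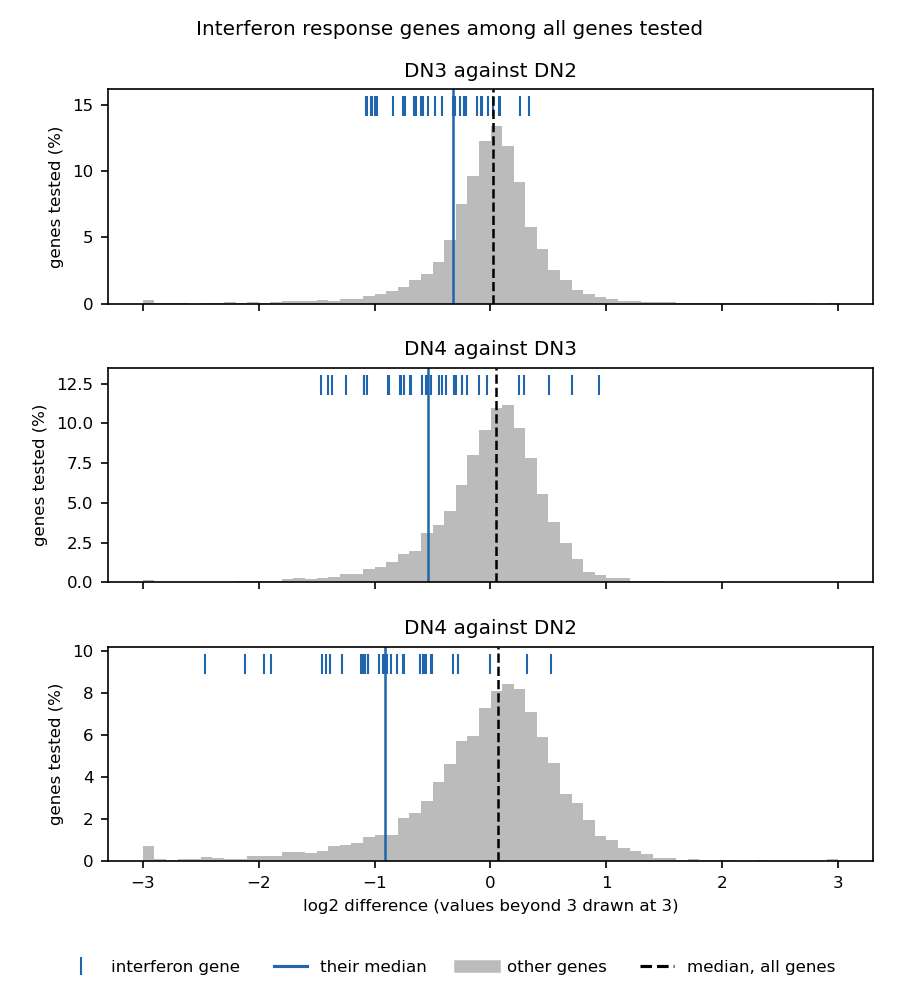
Log2 difference between stages (horizontal axis) of the other genes tested, as a histogram in percent of those genes. Each of the 33 interferon response genes is a tick. The genes' median (solid line) lies at -0.33, -0.54 and -0.91 in the 3 comparisons, left of the median of all genes (dashed line) at 0.02, 0.05 and 0.06.

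The step at which a gene was called varied. There were 7 genes that were lower at both successive steps, Isg20, Rsad2, Rtp4, Gbp2, Trim25, Parp9 and Parp14. Another 12 were called lower at the step between DN4 and DN3 alone, and 5 at the step between DN3 and DN2 alone. How many of all genes tested showed each pattern was not counted, so this split describes the listed genes only. A call at 1 step and none at the other does not show that the steps differ, since the difference between the steps was not tested. Of the 8 called at neither step, Eif2ak2, Xaf1, Mx1 and Irf7 were lower and Usp18 was higher in DN4 than DN2, and Oasl1, Ifit3 and Irf1 were never called. Ifit2 was the only gene called in opposite directions at the 2 steps.

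**Figure D3:**
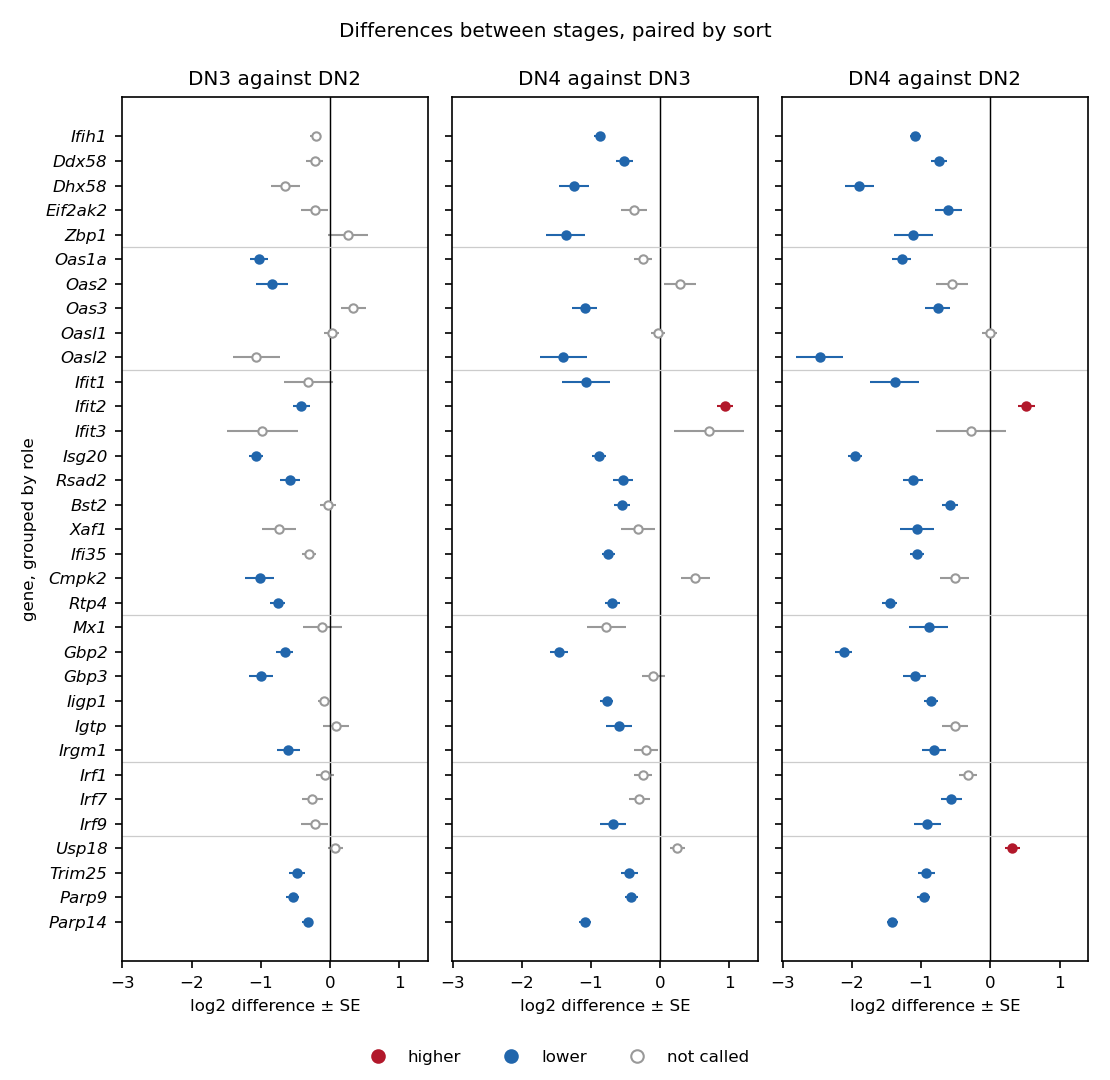
Log2 difference ± SE of the paired fit for each of the 33 genes tested, in the order of role. The panels show DN3 against DN2, DN4 against DN3 and DN4 against DN2. Blue points were called lower, red points higher and open points were not called. The red points are Ifit2 in 2 panels and Usp18 in 1.

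The sensors of foreign nucleic acid were lower in DN4. Of 5 genes, 0 were called between DN3 and DN2, 4 were lower in DN4 than DN3 and 5 were lower in DN4 than DN2. Over all genes tested, 10.9%, 14.9% and 21.9% were lower in the 3 comparisons. Ifih1 encodes MDA5, a cytosolic sensor of long double-stranded RNA. Its levels in sorts 1 to 4 were 9.16, 9.18, 9.36 and 9.52 in DN2, 9.07, 8.99, 9.12 and 9.20 in DN3 and 8.22, 7.97, 8.36 and 8.33 in DN4. Every DN4 array lay below every DN3 and DN2 array. Ifih1 fell by 0.87 ± 0.08 (adjusted p = 0.000233) between DN4 and DN3 and fell by 1.08 ± 0.08 (adjusted p = 2.09e-05) between DN4 and DN2, a 2.12-fold lower level. Ddx58 encodes RIG-I, which senses short double-stranded RNA with a 5' triphosphate. Its levels were 7.60, 8.23, 8.36 and 8.22 in DN2, 7.71, 7.99, 8.06 and 7.75 in DN3 and 7.31, 7.32, 7.55 and 7.26 in DN4. The DN4 arrays were again the lowest, while DN3 and DN2 overlapped. Ddx58 fell by 0.52 ± 0.12 (adjusted p = 0.0128, or 0.0515 without the block) between DN4 and DN3 and fell by 0.74 ± 0.12 (adjusted p = 0.0012) between DN4 and DN2. Of its 2 dimmer sets, neither was called between DN4 and DN3 (adjusted p = 0.162 and 0.2), and 1 fell by 0.63 (adjusted p = 0.0248) between DN4 and DN2.

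Dhx58 encodes LGP2, a relative of the other RNA helicase sensors without a signalling domain. Its levels were 6.33, 6.38, 6.27 and 6.55 in DN2, 5.41, 5.90, 5.83 and 5.82 in DN3 and 4.62, 3.88, 5.04 and 4.44 in DN4. The 3 stages did not overlap, and 3 of 4 DN4 arrays lay under the filter level. Dhx58 fell by 1.24 ± 0.21 (adjusted p = 0.00361) between DN4 and DN3, at least 2.04-fold lower, and fell by 1.89 ± 0.21 (adjusted p = 0.000192) between DN4 and DN2, at least 3.19-fold lower. Zbp1 encodes a sensor of left-handed nucleic acid that can start necroptosis. Its levels were 5.53, 5.65, 5.10 and 5.66 in DN2, 5.71, 6.26, 5.82 and 5.17 in DN3 and 4.41, 3.85, 4.94 and 4.29 in DN4. DN4 lay below both earlier stages, which overlapped. Its DN4 mean was under the filter level. Zbp1 fell by 1.37 ± 0.28 (adjusted p = 0.00857) between DN4 and DN3, at least 2.04-fold lower, and fell by 1.11 ± 0.28 (adjusted p = 0.0121) between DN4 and DN2, at least 1.71-fold lower. A dimmer second set was not called in the same comparisons, with -1.24 (adjusted p = 0.0552) and -1.02 (adjusted p = 0.0731). Eif2ak2 encodes PKR, a kinase that stops translation when it binds double-stranded RNA. Its levels were 5.56, 5.98, 5.75 and 6.26 in DN2, 5.53, 5.77, 5.16 and 6.19 in DN3 and 5.17, 5.30, 5.51 and 5.14 in DN4. The DN4 arrays lay below those of DN2 and overlapped those of DN3. Eif2ak2 fell by 0.61 ± 0.19 (adjusted p = 0.0292) between DN4 and DN2. Its other sets, both dimmer, were not called in that comparison, with -0.31 (adjusted p = 0.29) and -0.12 (adjusted p = 0.659), and the call was also lost with the mean of all probe sets. The call of Eif2ak2 was lost on leaving out 1 array, any of DN2 replicates 2, 3 and 4 and DN4 replicates 1, 2 and 4 (adjusted p = 0.052 to 0.0845).

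The OAS family, whose enzymes make the 2'-5' oligoadenylates that activate RNase L, was mixed. Of 5 genes, 2 were lower in DN3 than DN2, 2 in DN4 than DN3 and 3 in DN4 than DN2. The shares lower over all genes were 10.9%, 14.9% and 21.9%. Oas1a measured 8.0, 7.81, 7.70 and 8.11 in DN2, 6.60, 6.85, 6.91 and 7.14 in DN3 and 6.20, 6.80, 6.70 and 6.80 in DN4. The DN2 arrays stood above all others, and DN4 overlapped DN3. Oas1a fell by 1.03 ± 0.13 (adjusted p = 0.00123) between DN3 and DN2, 2.04-fold, and fell by 1.28 ± 0.13 (adjusted p = 0.000127) between DN4 and DN2. The overlapping ISRE cores just before its start are printed above. Oas2 measured 5.67, 6.13, 5.80 and 6.18 in DN2, 4.40, 5.59, 5.52 and 4.92 in DN3 and 5.47, 5.57, 5.63 and 4.91 in DN4. The DN2 arrays were the highest, and DN3 sort 1 was the lowest of all. Oas2 fell by 0.84 ± 0.23 (adjusted p = 0.0316, or 0.0568 without the block) between DN3 and DN2.

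Oas3 stood at 4.85, 5.01, 5.31 and 4.32 in DN2, 5.09, 5.39, 5.34 and 5.02 in DN3 and 3.52, 4.27, 4.41 and 4.27 in DN4. DN4 lay below DN3 on every array, and all 4 DN4 arrays were under the filter level. Oas3 fell by 1.09 ± 0.18 (adjusted p = 0.00336) between DN4 and DN3, at least 1.41-fold lower, and fell by 0.76 ± 0.18 (adjusted p = 0.00895) between DN4 and DN2, at least 1.12-fold lower. Oasl2 belongs to the OAS-like genes. Its levels were 7.20, 6.63, 6.85 and 7.38 in DN2, 5.68, 5.40, 6.33 and 6.38 in DN3 and 3.20, 4.60, 4.82 and 5.57 in DN4. DN2 stood above DN3 on every array, and DN4 spread widely, from 3.20 in sort 1 to 5.57 in sort 4, which overlapped DN3. Its DN4 mean was under the filter level. Oasl2 fell by 1.40 ± 0.34 (adjusted p = 0.0159) between DN4 and DN3, at least 2.36-fold lower, and fell by 2.47 ± 0.34 (adjusted p = 0.000567) between DN4 and DN2, at least 4.93-fold lower. Oasl1, which in mice restrains translation of Irf7, differed by 0.02 ± 0.11 between DN3 and DN2, -0.03 ± 0.11 between DN4 and DN3 and -0.01 ± 0.11 between DN4 and DN2. The call of Oas2 between DN3 and DN2 was lost on leaving out 1 array, any of DN2 replicates 1, 2 and 4 and DN3 replicates 1 and 4 (adjusted p = 0.0612 to 0.088). That of Oasl2 between DN4 and DN3 was lost on leaving out 1 array, any of DN3 replicates 1 and 3 (adjusted p = 0.0505 to 0.0507).

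The antiviral effectors included genes that fell at both steps and 1 that rose. Of the 10 tested, 5 were lower in DN3 than DN2. Between DN4 and DN3, 6 were lower and 1 higher, and between DN4 and DN2, 7 were lower and 1 higher. Over all genes, 10.9%, 14.9% and 21.9% were lower and 9.99%, 15.4% and 24.8% higher in the 3 comparisons. The IFIT proteins bind viral RNA and sequester it from translation. Ifit1 measured 5.46, 5.74, 5.95 and 5.21 in DN2, 5.17, 5.03, 5.71 and 5.19 in DN3 and 3.19, 3.45, 5.09 and 5.09 in DN4. DN2 and DN3 overlapped, and DN4 split between 2 low arrays, of sorts 1 and 2, and 2 arrays at 5.09. The DN4 mean was under the filter level. Ifit1 fell by 1.07 ± 0.35 (adjusted p = 0.0488, or 0.0919 without the block) between DN4 and DN3, at least 1.48-fold lower, and fell by 1.38 ± 0.35 (adjusted p = 0.0114) between DN4 and DN2, at least 1.84-fold lower. Its call between DN4 and DN3 was lost on leaving out 1 array, any of DN2 replicates 1 and 3, DN3 replicates 1, 2, 3 and 4 and DN4 replicates 1, 2 and 3 (adjusted p = 0.0561 to 0.14).

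Ifit2 went the other way. Its levels were 7.97, 7.73, 7.85 and 8.32 in DN2, 7.87, 7.13, 7.54 and 7.67 in DN3 and 8.78, 8.26, 8.14 and 8.79 in DN4. Every DN4 array exceeded every DN3 array, DN3 was the lowest of the 3 stages within each sort, and DN4 was the highest within each sort. Ifit2 fell by 0.42 ± 0.12 (adjusted p = 0.039, or 0.229 without the block) between DN3 and DN2. It then rose by 0.94 ± 0.12 (adjusted p = 0.00106) between DN4 and DN3, a 1.92-fold higher level, and rose by 0.52 ± 0.12 (adjusted p = 0.00705, or 0.065 without the block) between DN4 and DN2. The first of these calls was lost on leaving out 1 array, any of DN2 replicates 2, 3 and 4, DN3 replicates 1, 2 and 4 and DN4 replicates 2 and 4 (adjusted p = 0.0526 to 0.121). The rise between DN4 and DN3 kept its call without any 1 array and without the block. Without normalization between arrays it measured 0.41, where the median of all genes stood at -0.41, and was not called.

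Ifit3 shares a gene cluster with both. Its DN2 arrays ran from 4.97 to 5.55, its DN3 arrays from 2.72 in sort 4 to 5.36 in sort 3, and its DN4 arrays from 4.43 to 5.55. Its differences were -0.98 ± 0.51 between DN3 and DN2, 0.70 ± 0.51 between DN4 and DN3 and -0.28 ± 0.51 between DN4 and DN2, none called. With this spread between the DN3 arrays, no direction can be given for Ifit3.

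Isg20 encodes an exonuclease that degrades single-stranded RNA. It measured 8.77, 9.06, 9.0 and 8.93 in DN2, 7.64, 8.20, 7.87 and 7.75 in DN3 and 6.70, 7.11, 7.29 and 6.84 in DN4. The 3 stages formed separate bands on all 4 sorts. Isg20 fell by 1.07 ± 0.10 (adjusted p = 0.000241) between DN3 and DN2, fell by 0.88 ± 0.10 (adjusted p = 0.000622) between DN4 and DN3 and fell by 1.95 ± 0.10 (adjusted p = 3.34e-06) between DN4 and DN2, 3.87-fold in all. All 3 calls held under every alternative run. Rsad2 encodes viperin, a radical SAM enzyme that makes a chain-terminating nucleotide. It measured 9.0, 7.89, 8.69 and 8.58 in DN2, 8.06, 7.69, 7.92 and 8.17 in DN3 and 7.55, 7.13, 7.73 and 7.28 in DN4. Each sort declined at both steps, with overlap between neighbouring stages. Rsad2 fell by 0.58 ± 0.15 (adjusted p = 0.0248, or 0.121 without the block) between DN3 and DN2, fell by 0.54 ± 0.15 (adjusted p = 0.0252, or 0.117 without the block) between DN4 and DN3 and fell by 1.12 ± 0.15 (adjusted p = 0.000444) between DN4 and DN2. Of 2 dimmer Rsad2 sets, neither was called between DN3 and DN2 (adjusted p = 0.076 and 0.807), 1 of them fell by 0.86 between DN4 and DN3 (adjusted p = 0.0483), and both fell between DN4 and DN2, by 0.58 (adjusted p = 0.0134) and 0.99 (adjusted p = 0.0185). The call of Rsad2 between DN3 and DN2 was lost on leaving out 1 array, any of DN2 replicates 1, 3 and 4 and DN3 replicates 1 and 3 (adjusted p = 0.0592 to 0.0808). Its call between DN4 and DN3 was lost on leaving out 1 array, any of DN3 replicates 2 and 4 and DN4 replicates 1 and 4 (adjusted p = 0.0762 to 0.0856).

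Cmpk2, a mitochondrial nucleotide kinase gene next to Rsad2 on chromosome 12, measured 5.28, 5.71, 7.06 and 6.72 in DN2, 4.82, 5.08, 5.36 and 5.44 in DN3 and 5.11, 5.76, 5.87 and 5.98 in DN4. The DN2 arrays of sorts 3 and 4 stood above those of sorts 1 and 2, and DN3 was the lowest stage in every sort. Cmpk2 fell by 1.02 ± 0.21 (adjusted p = 0.0106, or 0.0859 without the block) between DN3 and DN2. A dimmer second Cmpk2 set did not pass the filter and differed by -0.14 there. The call was lost with the mean of all probe sets and in sorts 1 and 2 alone. Between DN4 and DN3 the difference of Cmpk2, 0.51 ± 0.21, was not called (adjusted p = 0.101), though positive in 4 of 4 sorts. Rtp4 encodes a chaperone of G protein-coupled receptors that also restrains viral replication. It measured 9.16, 8.81, 9.62 and 9.41 in DN2, 8.16, 8.26, 8.91 and 8.63 in DN3 and 7.48, 7.24, 8.37 and 8.11 in DN4. Sorts 3 and 4 lay above sorts 1 and 2 at every stage, and each sort declined at both steps. Rtp4 fell by 0.76 ± 0.11 (adjusted p = 0.00201, or 0.0942 without the block) between DN3 and DN2, fell by 0.69 ± 0.11 (adjusted p = 0.00249, or 0.0987 without the block) between DN4 and DN3 and fell by 1.45 ± 0.11 (adjusted p = 2.29e-05) between DN4 and DN2. Its other probe set was below the filter level and averaged 4.10 in DN4 and 3.20 in DN3, so the mean of both sets turned the DN4 against DN3 difference to 0.11.

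Bst2 encodes tetherin, which holds budding virions at the cell surface, and also marks plasmacytoid dendritic cells. It measured 8.48, 9.04, 8.30 and 8.32 in DN2, 8.32, 9.15, 8.41 and 8.15 in DN3 and 8.0, 8.20, 7.77 and 7.86 in DN4. DN3 and DN2 overlapped throughout, sort 2 was the highest at each stage, and DN4 was the lowest in each sort. Bst2 fell by 0.55 ± 0.11 (adjusted p = 0.0082, or 0.113 without the block) between DN4 and DN3 and fell by 0.58 ± 0.11 (adjusted p = 0.0035, or 0.0633 without the block) between DN4 and DN2. Ifi35, which forms a complex with NMI, measured 10.91, 10.81, 11.04 and 10.86 in DN2, 10.65, 10.64, 10.72 and 10.38 in DN3 and 9.68, 9.71, 10.17 and 9.83 in DN4. The 3 stages did not overlap. Ifi35 fell by 0.75 ± 0.10 (adjusted p = 0.00118) between DN4 and DN3 and fell by 1.06 ± 0.10 (adjusted p = 7.02e-05) between DN4 and DN2. Its probe set can match several transcripts, and both of its other sets also fell, by 0.53 and 0.66, between DN4 and DN2. Xaf1 encodes a protein that binds the apoptosis inhibitor XIAP. It measured 7.56, 7.70, 7.90 and 7.69 in DN2, 7.62, 6.74, 6.57 and 6.97 in DN3 and 6.40, 6.37, 7.12 and 6.73 in DN4. DN2 exceeded DN4 on every array, and DN3 overlapped both. Xaf1 fell by 1.06 ± 0.24 (adjusted p = 0.00739) between DN4 and DN2. A dimmer second Xaf1 set averaged 4.72 in DN4 and 4.69 in DN2 and was not called, with a difference of 0.03 (adjusted p = 0.943), so the probe sets disagree.

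Of the interferon-induced GTPases, the guanylate-binding proteins and the immunity-related GTPases act on the vacuoles of intracellular pathogens. Of the 6 GTPases tested, Mx1 included, 3 were lower in DN3 than DN2, 3 in DN4 than DN3 and 5 in DN4 than DN2. The shares lower over all genes were 10.9%, 14.9% and 21.9%. Gbp2, a guanylate-binding protein, measured 8.55, 8.43, 9.25 and 9.06 in DN2, 8.08, 7.89, 8.58 and 8.11 in DN3 and 6.45, 6.17, 7.51 and 6.69 in DN4. Every sort declined at both steps, and DN4 lay below DN3 on every array. Gbp2 fell by 0.66 ± 0.13 (adjusted p = 0.00766, or 0.165 without the block) between DN3 and DN2, fell by 1.46 ± 0.13 (adjusted p = 0.000194) between DN4 and DN3 and fell by 2.12 ± 0.13 (adjusted p = 7.29e-06) between DN4 and DN2, 4.35-fold in all. This probe set can match related transcripts, and a second Gbp2 set that is not of this kind fell by 1.70 between DN4 and DN2 (adjusted p = 5.73e-05). Gbp3 lies near Gbp2 on chromosome 3. It measured 9.16, 8.71, 8.66 and 9.52 in DN2, 7.87, 7.69, 8.37 and 8.15 in DN3 and 8.10, 7.71, 7.85 and 8.01 in DN4. Its DN2 arrays stood apart, while DN4 and DN3 overlapped. Gbp3 fell by 0.99 ± 0.17 (adjusted p = 0.00486) between DN3 and DN2 and fell by 1.09 ± 0.17 (adjusted p = 0.0011) between DN4 and DN2.

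Irgm1, Igtp and Iigp1 belong to the immunity-related GTPases, of which Irgm1 and Igtp (Irgm3) regulate the effector Iigp1 (Irga6). Irgm1 measured 8.83, 8.42, 8.22 and 8.55 in DN2, 7.65, 7.67, 8.20 and 8.10 in DN3 and 7.64, 7.38, 7.99 and 7.79 in DN4. DN2 lay above both later stages, which overlapped. Irgm1 fell by 0.60 ± 0.17 (adjusted p = 0.0401, or 0.0533 without the block) between DN3 and DN2 and fell by 0.81 ± 0.17 (adjusted p = 0.00521) between DN4 and DN2. Igtp measured 9.97, 9.39, 9.46 and 9.0 in DN2, 9.46, 9.87, 9.53 and 9.30 in DN3 and 8.76, 8.88, 9.39 and 8.74 in DN4. DN2 and DN3 overlapped, and DN4 was below DN3 within each sort. Igtp fell by 0.59 ± 0.19 (adjusted p = 0.0471, or 0.0771 without the block) between DN4 and DN3. Iigp1 measured 6.82, 6.10, 6.59 and 6.52 in DN2, 6.56, 6.36, 6.53 and 6.25 in DN3 and 5.85, 5.37, 5.83 and 5.54 in DN4. DN4 lay below both earlier stages on every array. Iigp1 fell by 0.77 ± 0.10 (adjusted p = 0.00107) between DN4 and DN3 and fell by 0.86 ± 0.10 (adjusted p = 0.000219) between DN4 and DN2. The call of Irgm1 between DN3 and DN2 was lost on leaving out 1 array, any of DN2 replicates 1, 2 and 4, DN3 replicates 1, 2 and 4 and DN4 replicates 1, 2 and 4 (adjusted p = 0.0525 to 0.118). That of Igtp was lost on leaving out 1 array, any of DN2 replicates 2, 3 and 4, DN3 replicates 1, 2, 3 and 4 and DN4 replicates 1, 2 and 4 (adjusted p = 0.0573 to 0.146).

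Mx1 encodes a dynamin-like GTPase whose gene is disrupted in C57BL/6 mice, so its transcript makes no active protein in this strain. It measured 5.0, 4.33, 5.09 and 5.40 in DN2, 4.25, 4.98, 5.42 and 4.72 in DN3 and 3.79, 4.50, 3.91 and 4.05 in DN4. Its DN4 arrays were all under the filter level, and DN2 and DN3 straddled it. Mx1 fell by 0.89 ± 0.28 (adjusted p = 0.0283) between DN4 and DN2, at least 1.18-fold lower. Its call was lost on leaving out 1 array, any of DN2 replicates 1, 3 and 4 and DN4 replicates 1, 3 and 4 (adjusted p = 0.0572 to 0.0916). Mx2 stayed under the filter level on all 12 arrays, with means of 3.21 in DN2, 3.13 in DN3 and 2.95 in DN4, and was not tested.

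Of 4 transcription factors of the pathway, only 3 were tested. Of the 3 tested, 0 were called between DN3 and DN2, 1 was lower in DN4 than DN3 and 2 were lower in DN4 than DN2. The shares lower over all genes were 10.9%, 14.9% and 21.9%. Irf9, the DNA-binding part of the complex that recognises the ISRE, measured 8.20, 8.17, 7.68 and 8.24 in DN2, 7.60, 7.83, 7.93 and 8.03 in DN3 and 7.03, 7.14, 7.59 and 6.90 in DN4. DN4 lay below both earlier stages, which overlapped. Irf9 fell by 0.68 ± 0.19 (adjusted p = 0.0273) between DN4 and DN3 and fell by 0.91 ± 0.19 (adjusted p = 0.00474) between DN4 and DN2. Irf7, the factor that amplifies type I interferon production, measured 7.65, 7.16, 7.06 and 7.47 in DN2, 6.98, 6.87, 7.38 and 7.07 in DN3 and 6.96, 6.65, 6.90 and 6.59 in DN4. Neighbouring stages overlapped, and DN4 and DN2 were apart. Irf7 fell by 0.56 ± 0.15 (adjusted p = 0.0152) between DN4 and DN2. Irf1 averaged 11.38 ± 0.13 in DN2, 11.30 ± 0.28 in DN3 and 11.06 ± 0.35 in DN4 (SD, n = 4 each) and was not called, with -0.32 ± 0.13 (SE) between DN4 and DN2 (adjusted p = 0.0742). Stat2 averaged 4.46 in DN2, 4.53 in DN3 and 4.66 in DN4, exceeded the filter level on 3 arrays and was not tested. The call of Irf9 between DN4 and DN3 was lost on leaving out 1 array, any of DN3 replicates 2, 3 and 4 and DN4 replicates 1, 2 and 4 (adjusted p = 0.0666 to 0.0826). That of Irf7 was lost on leaving out 1 array, any of DN2 replicates 1 and 4 and DN4 replicate 4 (adjusted p = 0.0506 to 0.0528).

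Of 4 modifiers and regulators, 3 were lower in every comparison and Usp18 was not. The shares lower over all genes were 10.9%, 14.9% and 21.9% in the 3 comparisons. Parp14, an ADP-ribosyltransferase, measured 8.12, 8.50, 8.13 and 8.12 in DN2, 7.64, 8.22, 7.96 and 7.75 in DN3 and 6.64, 7.04, 6.94 and 6.59 in DN4. DN4 stood apart below both earlier stages. Parp14 fell by 0.33 ± 0.08 (adjusted p = 0.0243, or 0.227 without the block) between DN3 and DN2, fell by 1.09 ± 0.08 (adjusted p = 0.000121) between DN4 and DN3 and fell by 1.42 ± 0.08 (adjusted p = 6.74e-06) between DN4 and DN2. Parp9, which acts with the ubiquitin ligase DTX3L, measured 9.42, 9.50, 9.29 and 9.47 in DN2, 8.63, 8.96, 8.99 and 8.93 in DN3 and 8.35, 8.42, 8.53 and 8.53 in DN4. The 3 stages formed separate bands. Parp9 fell by 0.54 ± 0.09 (adjusted p = 0.0045) between DN3 and DN2, fell by 0.42 ± 0.09 (adjusted p = 0.0104) between DN4 and DN3 and fell by 0.96 ± 0.09 (adjusted p = 8.3e-05) between DN4 and DN2. The call of Parp14 between DN3 and DN2 was lost on leaving out 1 array, any of DN2 replicates 1, 2 and 4 and DN3 replicates 1, 2, 3 and 4 (adjusted p = 0.0545 to 0.0776).

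Trim25 encodes a ubiquitin ligase that activates RIG-I. It measured 11.93, 11.78, 11.35 and 11.21 in DN2, 11.02, 11.31, 11.02 and 11.00 in DN3 and 10.62, 10.87, 10.67 and 10.42 in DN4. The DN2 arrays of sorts 1 and 2 were the highest, and DN4 lay below DN3 on every array. Trim25 fell by 0.48 ± 0.12 (adjusted p = 0.0252, or 0.0954 without the block) between DN3 and DN2, fell by 0.44 ± 0.12 (adjusted p = 0.0254, or 0.0946 without the block) between DN4 and DN3 and fell by 0.92 ± 0.12 (adjusted p = 0.000451) between DN4 and DN2. This probe set can match several transcripts. A second Trim25 set fell by 1.02 between DN4 and DN2 (adjusted p = 0.000396), but the remaining set rose by 0.43 (adjusted p = 0.0103), so the probe sets of this gene disagree. The Trim25 call between DN3 and DN2 was lost on leaving out 1 array, any of DN2 replicate 2 and DN3 replicates 1, 2 and 3 (adjusted p = 0.0585 to 0.0791). That between DN4 and DN3 was lost on leaving out 1 array, any of DN3 replicates 2, 3 and 4 and DN4 replicates 1, 2 and 4 (adjusted p = 0.0629 to 0.0826).

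Usp18 removes ISG15 from proteins and blocks the type I interferon receptor, and so restrains the response. It measured 5.54, 5.29, 6.51 and 6.15 in DN2, 5.67, 5.56, 6.45 and 6.09 in DN3 and 5.65, 5.59, 7.0 and 6.51 in DN4. The stages overlapped, and sorts 3 and 4 lay above sorts 1 and 2 at each of them. Within each sort DN4 exceeded DN2, by 0.11, 0.31, 0.49 and 0.36 in sorts 1 to 4. Usp18 rose by 0.32 ± 0.11 (adjusted p = 0.0404, or 0.518 without the block) between DN4 and DN2, 1.25-fold. This call was lost on leaving out 1 array, any of DN2 replicates 1, 2, 3 and 4 and DN4 replicates 2, 3 and 4 (adjusted p = 0.0556 to 0.124). Without normalization between arrays the difference turned to -0.17, where the median of all genes stood at -0.29.

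**Figure D4:**
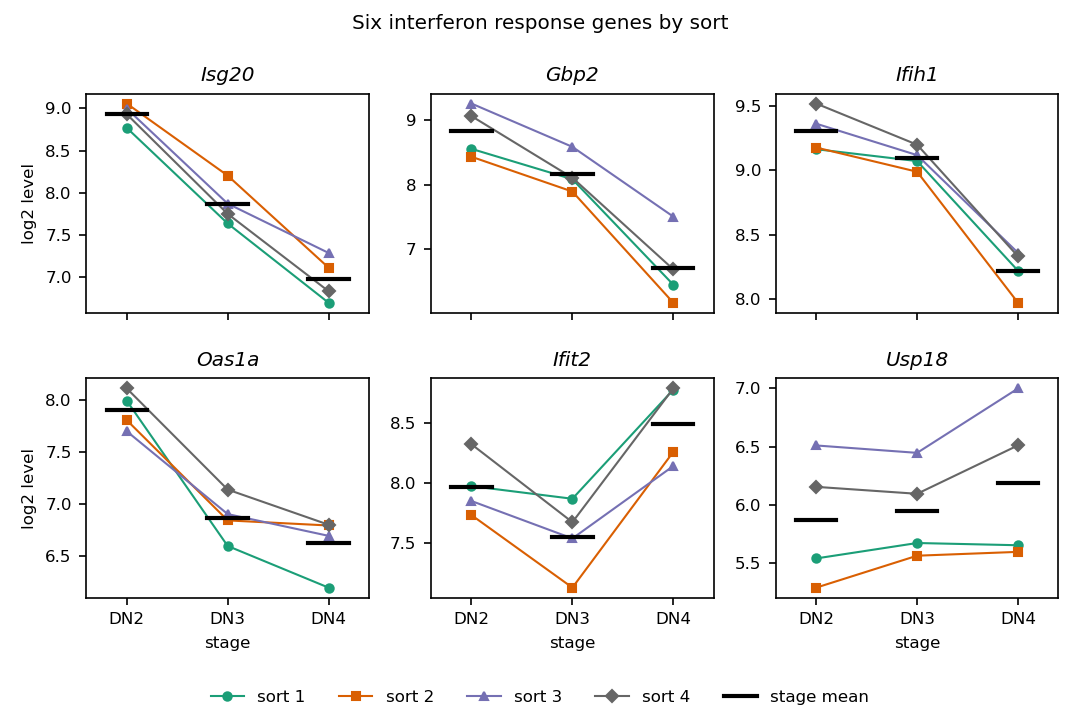
Log2 levels of 6 genes at DN2, DN3 and DN4 (horizontal axis), with a line for each sort and a bar for the stage mean. Isg20 and Gbp2 declined at both steps in each sort, Ifih1 mainly at the second, Oas1a mainly at the first, Ifit2 dipped in DN3 and peaked in DN4, and Usp18 differed more between sorts than between stages.

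Levels of the 33 genes also differed between sorts at a given stage. Their mean deviation from the stage mean was -0.13 in sort 1, -0.07 in sort 2, 0.15 in sort 3 and 0.04 in sort 4. Rtp4, Usp18 and Gbp2 stood higher in sorts 3 and 4 than in sorts 1 and 2 at DN2, which the paired fit removes from the stage differences. The labels do not say what else set the sorts apart.

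The signals upstream of these genes were examined in lists that were chosen with earlier results known. Of 6 interferon genes measured, 2 passed the filter, and Ifnb1, Ifna1, Ifna2 and Ifna4 did not. Ifng, the gene of interferon gamma, averaged 5.68 in DN2, 6.70 in DN3 and 5.82 in DN4. It rose by 1.02 ± 0.21 (adjusted p = 0.0101, or 0.0605 without the block) between DN3 and DN2 and fell by 0.88 ± 0.21 (adjusted p = 0.0145, or 0.0817 without the block) between DN4 and DN3. Ifna5 averaged 5.01 in DN4 and 4.0 in DN2, which is under the filter level. It rose by 1.0 ± 0.29 (adjusted p = 0.0217, or 0.0531 without the block) between DN4 and DN2, at least 1.23-fold higher.

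Of 10 receptor and signal transducer genes tested, 0 were called between DN3 and DN2. Between DN4 and DN3, 4 were lower, Ifngr1, Stat3, Jak1 and Irf9. Between DN4 and DN2 the same 4 were lower and Ifngr2 was higher. Over all genes tested, 10.9%, 14.9% and 21.9% were lower in the 3 comparisons and 9.99%, 15.4% and 24.8% higher. Ifngr1, the ligand-binding chain of the interferon gamma receptor, fell by 0.69 ± 0.16 (adjusted p = 0.0136) between DN4 and DN3 and fell by 0.92 ± 0.16 (adjusted p = 0.00195) between DN4 and DN2. Stat3 fell by 0.91 ± 0.14 (adjusted p = 0.00101) and Jak1, the kinase common to the interferon receptors, fell by 0.56 ± 0.10 (adjusted p = 0.00239) between DN4 and DN2. Ifngr2 rose by 0.40 ± 0.14 (adjusted p = 0.0478, or 0.512 without the block) in that comparison. Ifnar1 and Ifnar2, the chains of the type I receptor, were not called in any comparison.

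Among 8 interferon regulatory factors, Irf8 moved opposite to Irf7 and Irf9. Irf8 rose by 0.37 ± 0.09 (adjusted p = 0.0142, or 0.0666 without the block) between DN4 and DN3 and rose by 0.64 ± 0.09 (adjusted p = 0.00057) between DN4 and DN2. The other 5, among them Irf1 and Irf4, were not called in any comparison. Of 9 adaptors and kinases of nucleic acid sensing tested, 2 were lower in DN3 than DN2 (Sting1 and Cgas), 4 in DN4 than DN3 (Sting1, Tbk1, Ikbke and Aim2) and 5 in DN4 than DN2, and 0 were higher. The shares over all genes were again 10.9%, 14.9% and 21.9% lower, and 9.99%, 15.4% and 24.8% higher. Sting1, the adaptor of cytosolic DNA sensing, fell by 0.98 ± 0.10 (adjusted p = 0.000349) between DN3 and DN2 and fell by 1.36 ± 0.10 (adjusted p = 1.99e-05) between DN4 and DN2. Cgas, the enzyme upstream of it, fell by 1.03 ± 0.18 (adjusted p = 0.0047) between DN3 and DN2. Tbk1, the kinase downstream, fell by 0.48 ± 0.08 (adjusted p = 0.00364) between DN4 and DN3.

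Of 13 inhibitors of the signal, Usp18 included, 1, Ptpn11, was lower in DN3 than DN2, and 2, Socs3 and Ptpn1, were lower in DN4 than DN3. Between DN4 and DN2 these 3 were lower, and Usp18 and Pias4 were higher. The lower counts are near the share over all genes, which was 10.9%, 14.9% and 21.9% lower in the 3 comparisons. Socs3, a feedback inhibitor of Janus kinases, averaged 9.57 in DN2, 10.08 in DN3 and 8.17 in DN4. It fell by 1.91 ± 0.18 (adjusted p = 0.000254) between DN4 and DN3. The phosphatase gene Ptpn1 fell by 0.50 ± 0.07 (adjusted p = 0.00172) in the same comparison. Pias4, of a family that restrains STAT proteins, rose by 0.41 ± 0.12 (adjusted p = 0.0252, or 0.0604 without the block) between DN4 and DN2.

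A further 51 interferon-induced genes outside the list were also more often lower than higher. Of these, 15 were lower and 4 higher in DN3 than DN2, 20 lower and 4 higher in DN4 than DN3, and 31 lower and 3 higher in DN4 than DN2, with medians of -0.26, -0.37 and -0.64. Among all genes tested, 10.9%, 14.9% and 21.9% were lower and 9.99%, 15.4% and 24.8% higher in the same order. The medians of all genes were 0.02, 0.05 and 0.06. Ifi209, of the DNA-sensing AIM2-like family, averaged 8.47 in DN2, 7.03 in DN3 and 6.33 in DN4. It fell by 1.44 ± 0.10 (adjusted p = 5.18e-05) between DN3 and DN2 and fell by 2.14 ± 0.10 (adjusted p = 2.07e-06) between DN4 and DN2. Gbp8 averaged 10.26 in DN2, 10.64 in DN3 and 8.60 in DN4, and fell by 2.04 ± 0.11 (adjusted p = 1.99e-05) between DN4 and DN3. Trim30a fell by 1.68 ± 0.10 (adjusted p = 5.96e-06) between DN4 and DN2. The 3 genes higher in DN4 than DN2 were Ifi30, Pnpt1 and Nt5c3. Ifi30, a lysosomal thiol reductase used in antigen processing, averaged 6.49 in DN2, 6.97 in DN3 and 8.10 in DN4, with no overlap between stages, and rose by 1.61 ± 0.12 (adjusted p = 2.15e-05) between DN4 and DN2. The 4 higher at the step between DN3 and DN2 were these 3 and Gbp8, and the 4 higher at the step between DN4 and DN3 were Ifi30, Pnpt1, Pml and Daxx.

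**Figure D5:**
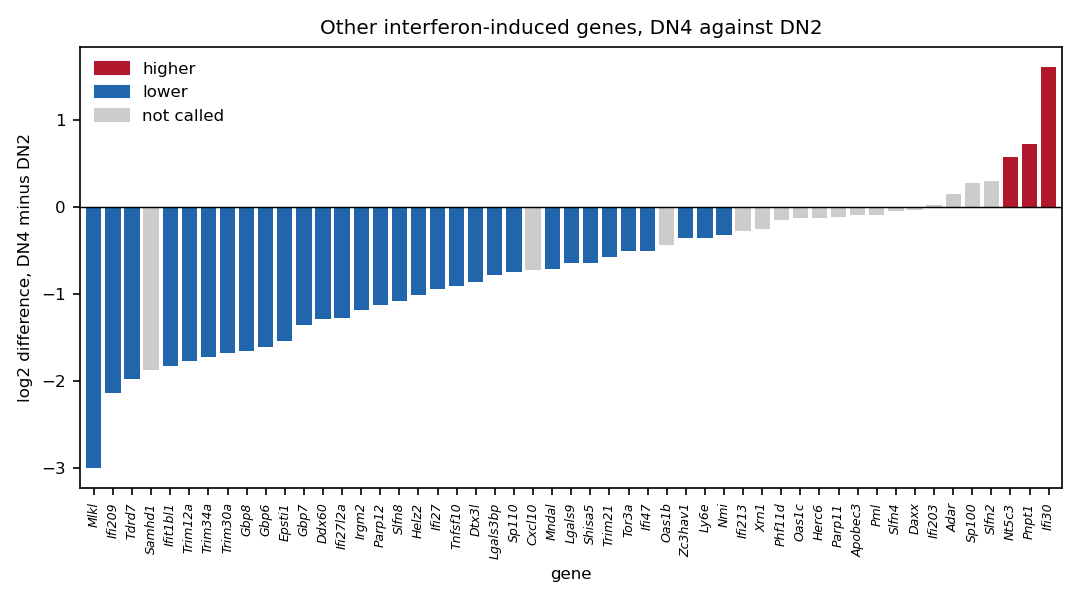
Log2 difference between DN4 and DN2 (vertical axis) for the 51 further interferon-induced genes tested, in rising order. Blue bars were called lower, red bars higher and grey bars were not called, and Ifi30, Pnpt1 and Nt5c3 are the 3 red bars at the right.

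Markers of other cell types moved between the stages as well. The 6 mast cell genes summed to 2790 to 3820 signal units in DN2, 96.9 to 240 in DN3 and 40.9 to 83.4 in DN4, and among them Cpa3 averaged 11.65, 7.05 and 5.34 on the log2 scale in the same order. Of these 6 genes 2, Cpa3 and Gata2, passed the filter. The 12 macrophage and myeloid genes, 7 of them above the filter, summed to 673 to 1168 in DN2, 301 to 349 in DN3 and 206 to 443 in DN4. Of the 7 tested, 4 were lower in DN4 than DN2, Lyz2, Mpo, Ctss and Elane, and Csf1r was higher. Lyz2 fell by 2.54 ± 0.23 (adjusted p = 6.33e-05) in that comparison, and Csf1r rose by 0.43 ± 0.14 (adjusted p = 0.0294, or 0.0562 without the block). Among 5 class II and dendritic cell genes tested, 4 were higher in DN4 than DN3, H2-Aa, H2-Ab1, H2-Eb1 and Cd74, and Itgax was lower. In DN3 against DN2 and in DN4 against DN2, 0 of these were higher and 1 was lower. The plasmacytoid dendritic cell genes, 8 measured with Bst2 among them, summed to 1467 to 3146 in DN2, 2065 to 3626 in DN3 and 1530 to 2399 in DN4. The defining marker Siglech averaged 3.10, 3.31 and 3.91, under the filter level in each. Of the 6 plasmacytoid genes tested, 1 was higher and 1 lower in DN3 than DN2. In DN4, 0 were higher and 3 lower than in DN3, and 1 was higher and 3 lower than in DN2. Cd8a averaged 7.28 and Cd8b1 8.28 in DN4, against 4.96 and 4.52 in DN3, in cells sorted as CD8-negative. The 7 natural killer cell genes measured, 3 of them above the filter, summed to 2196 to 4629 in DN2, 6265 to 6881 in DN3 and 7144 to 8734 in DN4, and the defining marker Ncr1 averaged 3.60 in DN4 and 3.12 in DN2, under the filter level in both. Among them Gzma, with a DN4 mean of 12.98 against 11.58 in DN2, was higher in that comparison, Klrd1 was lower and Prf1 was not called. Of 8 mature alpha-beta T cell genes tested, 4 were higher in DN4 than DN3, Cd8a, Cd8b1, Cd6 and Ccr7, and 0 were lower. In DN3 against DN2, 3 were higher and 3 lower, and in DN4 against DN2, 3 were higher and 2 lower. The 8 thymic epithelium genes summed to 239 to 366 in DN2, 509 to 710 in DN3 and 292 to 347 in DN4, and Epcam was higher in DN3 than DN2 and lower in DN4 than DN3. The 4 erythroid genes measured summed to 33.5 to 45.7 in DN2, 41.0 to 60.9 in DN3 and 72.5 to 128 in DN4, and the 1 tested was not called. Of the 4 B cell and 3 gamma-delta T cell genes tested, 1 of each list was lower in DN4 than DN2 and 0 were higher. Beside these marker counts, 10.9%, 14.9% and 21.9% of all genes were lower and 9.99%, 15.4% and 24.8% higher in the 3 comparisons. The part of other cells in the interferon response genes was not tested.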

How the data were processed

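RNA of 12 sorted samples was amplified in 2 cycles of cDNA synthesis and hybridised to 1 array each, per the labels' protocols. The authors deposited linear intensity values per probe set, which per the submitters' processing notes came from GCOS. The version and settings of that software were not given in the sources used here. The table held 45101 probe sets, 34958 with 1 symbol in the platform annotation, of which 34754 were brought to current RefSeq symbols by Entrez identifier. Stages and sort numbers came from the sample labels.

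Signals were quantile-normalized, an offset at the 25th percentile (5.68) was added, and log2 was taken. The probe set with the highest mean signal stood for its gene. Genes above the table's median (signal 20.5) on at least 4 arrays were tested, 11176 in all. The linear model (limma 3.58.1, R 4.3.3) had stage as the group and sort as a block and used every array, with moderated two-sided tests of the 3 stage contrasts. The p-values were adjusted by Benjamini-Hochberg over all genes tested, with a threshold of 0.05. Where the lower stage averaged under the filter level, a fold is given against that level as at least that size. Precision is limited by the small number of arrays.

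The pairing by sort comes from the labels, by which same-numbered samples have 1 cell source. As a check, residuals around stage means were correlated between arrays. Same-sort pairs gave 0.251 to 0.341, pairs from different sorts and stages gave at most 0.108, and 12 of 12 arrays correlated best with their own sort. The p-values measure how the stage differences vary between sorts, which are separate pools of mice. The spread of levels between sorts is removed by the block.

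Every listed gene is accounted for, and each gene called in at least 1 comparison is given on every array. Genes from the further lists are named by smallest adjusted p. The genes and lists were chosen with earlier results of these data known, so their counts describe these samples and are set beside those of all genes. The model was tested on simulated data. Alternatives were the fit without the block, other scalings, offsets and filters, other choices of probe set, only the 8 arrays compared, trend and robust settings, the Gapdh ratio as a covariate, pairs of sorts, and leaving out each array. Promoter windows were matched by symbol, and plots were made in Python 3.11.15 (matplotlib 3.10.9).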

Additional observations from a re-analysis of the deposited data

Results flagged for a closer look

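In each stage the highest or lowest of the 4 arrays was compared with the others for every gene tested, and 7 of 99 such groups held an array far from the other 3 relative to the group's range (Dixon's gap test at 95%). Chance alone sets apart about 1 in 20 groups. DN3 replicate 1 was the low array for 3 genes. Dhx58 measured 5.41 there against 5.82 to 5.90 on the other DN3 arrays, Irf1 10.89 against 11.44 to 11.45, and Parp9 8.63 against 8.93 to 8.99. DN3 replicate 2 was high for Trim25, at 11.31 against 11.00 to 11.02. DN4 replicate 1 was low for Oas3, at 3.52 against 4.27 to 4.41, where all 4 arrays lie under the filter level. In DN2, replicate 3 was low for Irf9, at 7.68 against 8.17 to 8.24, and replicate 2 was high for Parp14, at 8.50 against 8.12 to 8.13.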

How the results depend on the processing

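The 60 called differences were recomputed under 25 alternatives, each of which gave a value for 43 to 60 of them, and 23 were never lost or reversed where a value was given. Of the recomputed differences 1248 kept their call, 226 lost it and 2 changed sign, Usp18 between DN4 and DN2 without normalization between arrays (-0.17) and Rtp4 between DN4 and DN3 with the mean of all probe sets (0.11). The number of genes lower in DN3 than DN2, 13 as reported, was 4 with no replicate block (6.45% of all genes then, against 10.9% as reported), 5 without normalization between arrays (4.03%), 7 with no filter (4.48%), 2 with the Gapdh ratio as covariate beside the replicate block (2.13%), 4 in sorts 1 and 2 (3.63%) and 4 in sorts 3 and 4 (4.83%). The number lower in DN4 than DN3, 19 as reported, was 12 with no replicate block (9.07% of all genes, against 14.9%), 11 in sorts 1 and 2 (6.66%) and 9 in sorts 3 and 4 (7.52%). The number higher in DN4 than DN3, 1 as reported, was 0 without normalization between arrays (0.58% of all genes, against 15.4%), and 2 with the 8 arrays compared (18%), with the Gapdh covariate (12%) or in sorts 3 and 4 (4.57%). The number higher in DN4 than DN2, 2 as reported, was 0 with no replicate block (17.9% of all genes, against 24.8%), without normalization (3.88%) or with the Gapdh covariate (16.6%), and 1 with median centring, with no filter, with the filter at the 75th percentile (20 genes tested), with the 8 arrays compared, with trend and robust settings, in sorts 1 and 2 or in sorts 3 and 4, where 12.6% to 33.4% of all genes were higher. The number lower in DN4 than DN2 stayed within 1.5 times of 25 throughout. Without each array in turn, 8 to 14 genes were lower and 0 higher in DN3 than DN2, 14 to 19 lower and 1 to 2 higher in DN4 than DN3, and 22 to 26 lower and 1 to 2 higher in DN4 than DN2. In those fits 7.82% to 10.7%, 10.6% to 16% and 19.6% to 22.1% of all genes were lower in the 3 comparisons. The shares higher were 6.47% to 9.94%, 9.33% to 17.5% and 21.3% to 25%. Fits on fewer arrays have fewer residual degrees of freedom. The causes of the other changes were not tested.

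Without normalization between arrays the medians of all genes tested were 0.13 between DN3 and DN2, -0.41 between DN4 and DN3 and -0.29 between DN4 and DN2. In that setting 34 interferon response genes passed the filter, with medians of -0.24, -1.06 and -1.26. With median centring the medians of the 33 genes tested were -0.31, -0.68 and -0.93. Genes near the filter level, such as Ifit1, Ifit3, Mx1 and Oas3, are measured with less precision.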
